A study of Mus musculus with 6 samples.

Results

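Wnt proteins are secreted lipid-modified signals that bind Frizzled receptors. The set described here holds the Wnt ligands, the Frizzled receptors, the secreted inhibitors of Wnt signalling, and Axin2. Members were all genes with 1 annotated symbol of the form Wnt, Fzd, Sfrp or Dkk followed by a number, together with Frzb, Wif1 and Axin2, each read from its probe set of highest mean signal. They numbered 40 of 22184 genes on the array: 19 Wnt ligands, 10 Frizzled receptors, 10 secreted inhibitors and Axin2. Roles were assigned by gene name, so secreted inhibitors are the Sfrp and Dkk genes, Frzb and Wif1. Whether each of them inhibits Wnt signalling in aorta was not measured. RNA came from aorta of mice deficient in endothelial nitric oxide synthase (eNOS, encoded by Nos3) and of age-matched wild-type mice, with 3 samples in each group and 1 array per sample. The eNOS-deficient samples are numbered 11, 15 and 19 and the wild-type samples 2, 3 and 5, as in their titles. The labels name no allele, strain, sex, age or treatment, and do not say whether each sample is 1 animal or a pool. The p-values therefore measure only the spread between these samples, which may be technical, and the number of arrays limits the precision.

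In the best known branch of the pathway, a Wnt ligand joins a Frizzled receptor to the co-receptors Lrp5 or Lrp6, which stabilises beta-catenin and lets it act with TCF/LEF factors in the nucleus. Axin2 is a feedback target of that branch. Secreted Frizzled-related proteins (Sfrp1, Sfrp2, Sfrp4, Sfrp5 and Frzb, also called Sfrp3) and Wif1 bind Wnt proteins outside the cell, whereas Dkk1, Dkk2 and Dkk4 act on the co-receptors. In the vessel wall, Wnt signalling is known for its part in smooth muscle growth, calcification, fibroblast activation and the patterning of endothelial networks.

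Signals are log2 values after RMA, which corrects background, equalises the distributions of arrays and summarises the probes of a probe set. A probe set's signal depends on its probes, so signals are compared between arrays for 1 gene and not between genes. Of the 40 members, 38 had a mean at or above 4.38 log2, the 25th percentile of all probe sets, and entered the test over 18008 genes. Wnt8b and Fzd10 lay under that level and were not tested. Wnt8b read 4.63, 4.44 and 4.05 on eNOS-deficient 11, 15 and 19 and 4.47, 3.53 and 4.16 on wild type 2, 3 and 5. Fzd10 read 3.93, 3.87 and 4.34 against 4.60, 4.03 and 4.20. For both genes the groups overlapped.

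Nos3, the targeted gene, read 7.13, 7.39 and 7.27 on eNOS-deficient 11, 15 and 19 and 7.99, 7.88 and 7.36 on wild type 2, 3 and 5. Its difference was -0.48 log2 (standard error 0.19, limma adjusted p = 0.399), and wild type 5 lay inside the eNOS-deficient range. Where the probes lie relative to the deleted part is not stated, so this signal does not check the label of a single array. Array medians ran from 5.55 to 5.59 in the eNOS-deficient and from 5.61 to 5.68 in the wild-type group.

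The start regions of 4 members are shown because the comparison turns on 3 of them, Frzb, Sfrp2 and Wnt16, and because Axin2 is the feedback target. The sequences are RefSeq windows of build GRCm38.p6, 250 bases before to 50 after the gene start, written 5′ to 3′ on the gene's strand. The Frzb window is chr2:80447347-80447646 on the minus strand, that of Sfrp2 chr3:83766071-83766370 on the plus strand, that of Wnt16 chr6:22287977-22288276 on the plus strand and that of Axin2 chr11:108920099-108920398 on the plus strand. Capitals mark the CCAAT box, the letters CCAAT or their reverse complement ATTGG, which the Frzb and Sfrp2 windows do not hold.
Frzb: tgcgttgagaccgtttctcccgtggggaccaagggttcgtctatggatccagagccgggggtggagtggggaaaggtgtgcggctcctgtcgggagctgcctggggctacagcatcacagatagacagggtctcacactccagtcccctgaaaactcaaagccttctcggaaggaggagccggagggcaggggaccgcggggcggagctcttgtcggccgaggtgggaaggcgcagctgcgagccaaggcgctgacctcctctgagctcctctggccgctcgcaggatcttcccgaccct
Sfrp2: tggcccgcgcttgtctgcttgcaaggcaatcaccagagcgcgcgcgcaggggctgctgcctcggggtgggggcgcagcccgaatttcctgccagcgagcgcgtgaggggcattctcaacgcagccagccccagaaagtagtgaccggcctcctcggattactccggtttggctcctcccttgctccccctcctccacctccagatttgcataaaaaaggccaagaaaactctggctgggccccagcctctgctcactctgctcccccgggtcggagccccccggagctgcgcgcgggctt
Wnt16: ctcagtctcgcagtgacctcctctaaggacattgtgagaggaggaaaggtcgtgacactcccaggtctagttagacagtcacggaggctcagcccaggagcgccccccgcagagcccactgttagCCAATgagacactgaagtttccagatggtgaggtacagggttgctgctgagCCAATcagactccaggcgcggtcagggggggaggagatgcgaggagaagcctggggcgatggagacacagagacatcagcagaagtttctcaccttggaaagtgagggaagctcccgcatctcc
Axin2: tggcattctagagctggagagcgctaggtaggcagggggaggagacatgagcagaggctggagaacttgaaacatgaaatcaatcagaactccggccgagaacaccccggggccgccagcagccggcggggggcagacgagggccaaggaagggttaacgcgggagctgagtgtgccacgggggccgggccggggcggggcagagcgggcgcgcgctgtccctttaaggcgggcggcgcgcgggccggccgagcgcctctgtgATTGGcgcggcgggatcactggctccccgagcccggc

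RefSeq windows were at hand for 28 of the 40 members, 31 windows in all, and Dkk3 and Sfrp4 were not among them. The motifs were searched on both strands and share no letters with each other where they matched in the windows shown. The TCF/LEF letters CTTTGAA or CTTTGAT stood in 3 of the 31 member windows, those of Dkk1, Wnt11 and Wnt5b, and in 8.65% of all 32851 windows of that length. None of the 4 windows shown holds these letters. The CCAAT box stood in 12 of 31 windows, against 37.4% of all windows, and Wnt16 has 2 matches, at positions -125 and -74 from the gene start. The TATA box, TATAAA, stood in 5 of 31 windows, against 13.6% of all. Member windows were rich in G and C, with a median GC share of 66.7% against 52.7% over all windows, and held a median of 26 CG dinucleotides against 7. A match is a run of letters and not a measured binding site.

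Secreted inhibitors showed the largest differences of the set. Frzb, Sfrp2, Dkk3 and Sfrp4 had higher signals on every eNOS-deficient array than on any wild-type array, by 1.64 to 1.79-fold. Of the 10 inhibitors, 9 had a positive difference, with a median of 0.32 log2, beside a median of 0.036 and a share of 56.6% positive over all 18008 genes tested. No member passed the test over all genes (limma, Benjamini-Hochberg adjusted p under 0.05), which 0.0278% of all genes did, so these differences are given as measured values. At an unadjusted p under 0.05, 6 of the 38 members were higher (7.86% of all genes were) and 0 were lower (3.72% of all genes were). Of these 6, 4 were inhibitors, 1 was a receptor and 1 a ligand. With the dim filter at the 50th percentile, which leaves out Dkk1, Dkk4 and Wif1, the inhibitor median was 0.72.

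Frzb, a secreted Frizzled-related protein known from cartilage, read 6.72, 6.42 and 6.27 log2 on eNOS-deficient 11, 15 and 19 and 5.65, 5.70 and 5.55 on wild type 2, 3 and 5. The groups stood well apart, with the lowest eNOS-deficient value above the highest wild-type value. The mean difference was 0.84 log2 (standard error 0.15, 95% interval 0.50 to 1.18), a fold of 1.79 (limma unadjusted p = 0.000587, adjusted p = 0.198). Dkk3 is a divergent member of the Dickkopf family. It read 8.02, 7.91 and 8.19 on the eNOS-deficient arrays and 7.36, 7.33 and 7.20 on the wild-type arrays. Its wild-type values were tightly grouped, and the difference was 0.74 log2 (standard error 0.13, interval 0.45 to 1.04, fold 1.67, adjusted p = 0.198 in limma).

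Sfrp2, a product of fibroblasts that binds Wnt proteins, read 7.37, 7.31 and 7.24 on eNOS-deficient 11, 15 and 19, against 6.58, 6.26 and 6.76 on wild type 2, 3 and 5. Here the eNOS-deficient arrays were the tight group (SD 0.065 against 0.25, n = 3 each). The difference was 0.78 log2 (standard error 0.15, interval 0.42 to 1.14, fold 1.71, adjusted p = 0.208 in limma). A second probe set of Sfrp2, with a mean of 4.63 close to the dim level, differed by 0.31 log2 (standard error 0.21), and its groups overlapped. Sfrp4, another Frizzled-related inhibitor, read 8.19, 7.57 and 7.66 against 6.60, 7.31 and 7.36. It had the widest spread of the 4, because eNOS-deficient 11 stood high and wild type 2 low. The difference was 0.72 log2 (standard error 0.26, fold 1.64, adjusted p = 0.372 in limma), and the unadjusted p of 0.025 became 0.0766 without eNOS-deficient 11 (0.53 log2) and 0.0716 without wild type 2 (0.47 log2).

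The other inhibitors differed less. Sfrp1, a Wnt-binding inhibitor, read 6.94, 7.05 and 7.10 against 6.59, 6.76 and 6.88, without overlap and with a difference of 0.29 log2 (standard error 0.13, unadjusted p = 0.0541 in limma). Sfrp5, known as a secreted product of fat tissue, read 6.33, 6.19 and 6.64 against 6.21, 6.04 and 5.85. In Sfrp5 eNOS-deficient 15 lay just under wild type 2, and the difference was 0.35 (standard error 0.16). Dkk1, the best known co-receptor antagonist, differed by 0.25 (standard error 0.21), and Wif1, which binds Wnt proteins, by 0.13 (0.25). Dkk2 stood at 0.026 (0.23). Dkk4 was the inhibitor with a negative difference, -0.21 (0.15). In these last 4 genes the groups overlapped, and their intervals ran from -0.56 to 0.73 log2.

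**Figure D1:**
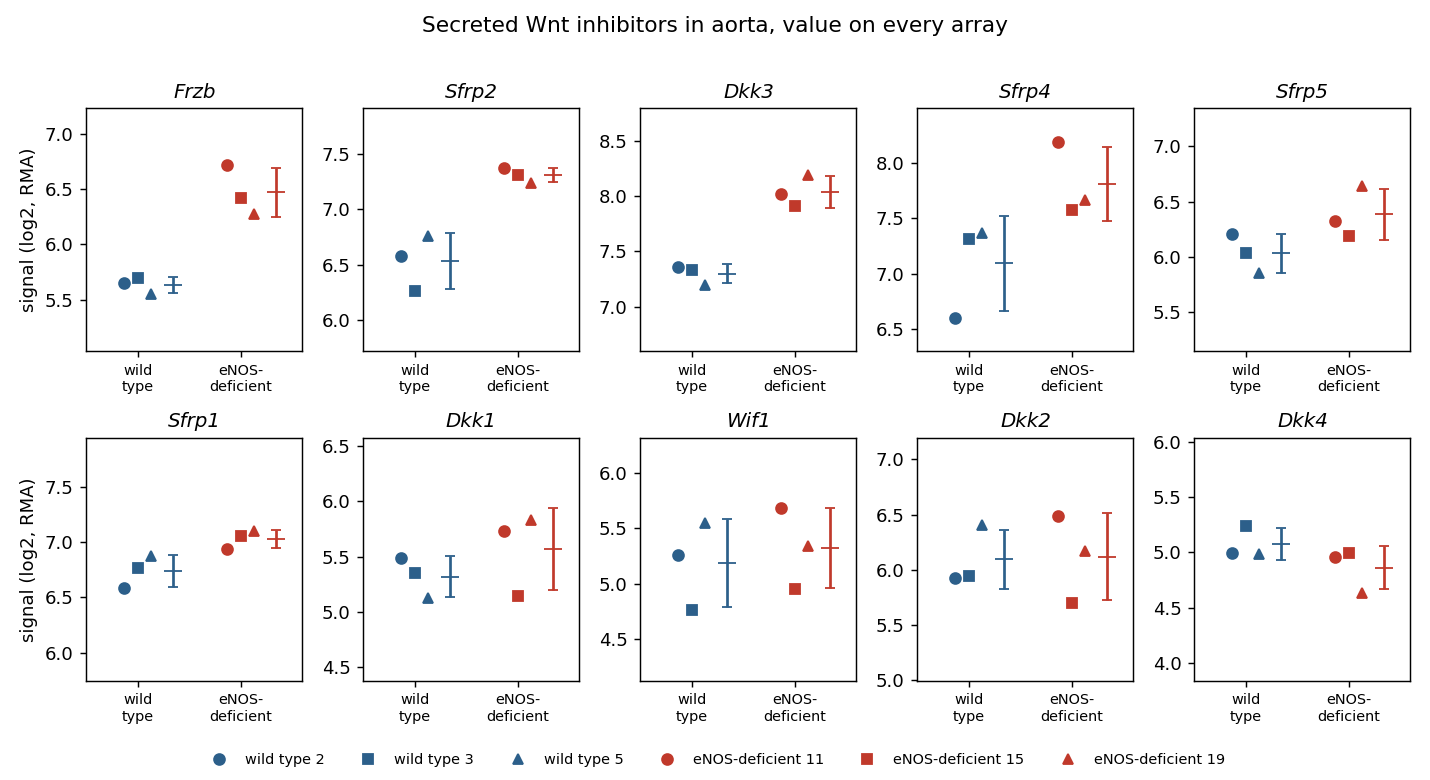
Signal (log2, RMA) of the 10 secreted inhibitors on every array, 1 panel per gene with axes of equal span, in order of their difference. Blue points are wild-type and red points eNOS-deficient arrays, with marker shape giving the sample, and the bar beside each group is its mean and SD (n = 3). The red points of Frzb, Sfrp2, Dkk3, Sfrp4 and Sfrp1 lie above all blue points of the same panel, and those of Dkk1, Dkk2, Dkk4 and Wif1 do not.

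Frizzled receptors showed smaller differences in both directions. Of 9 tested, 6 were positive and 3 negative, with a median of 0.17 log2. Fzd2, one of the receptors linked to Wnt5a signalling, read 6.20, 6.43 and 5.78 against 5.86, 5.70 and 5.40. The low value of eNOS-deficient 19 lay inside the wild-type range, and the difference was 0.48 (standard error 0.20, unadjusted p = 0.0466, adjusted p = 0.426 in limma). Its unadjusted p was above 0.05 without eNOS-deficient 11 (0.45 log2), eNOS-deficient 15 (0.34), wild type 3 (0.51) or wild type 5 (0.36). Fzd7 read 7.42, 7.02 and 6.98 against 6.97, 6.95 and 6.66, with a difference of 0.28 (standard error 0.16). Fzd3, known for axon guidance, differed by 0.17 (0.12). The groups of Fzd7 and Fzd3 did not overlap, with narrow gaps between them, and neither passed at an unadjusted p of 0.05.

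Fzd4, a receptor of Wnt proteins and of norrin that endothelial cells carry, read 10.36, 10.03 and 10.08 on eNOS-deficient 11, 15 and 19 and 10.51, 10.75 and 9.97 on wild type 2, 3 and 5. Wild type 5 was the lowest of all 6 arrays and the other two wild-type arrays the highest. The difference was -0.25 (standard error 0.21, adjusted p = 0.693 in limma), and without wild type 5 it was -0.48 (unadjusted p = 0.0193, adjusted p = 0.248). A list of 14 endothelial markers such as Pecam1 and Cdh5 had a mean of 7.85 in wild type 5. The same mean was 8.66 and 8.74 in wild type 2 and 3, and lay between 8.07 and 8.41 for eNOS-deficient samples. Of the 14, 4 had a positive difference. Their part in the Fzd4 values was not tested.

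Fzd6, a receptor of planar cell polarity, read 7.27, 7.05 and 6.80 against 7.32, 7.31 and 7.23, a difference of -0.25 (standard error 0.15). Wild-type values were nearly equal, and without eNOS-deficient 11 the difference was -0.36 (unadjusted p = 0.0449 in limma). Fzd9 differed by 0.31 (0.26), and eNOS-deficient 11 read 7.28 where the other arrays ran from 6.26 to 6.45. Fzd8 read 5.81 on wild type 5 and 6.61 to 6.86 on the other arrays. Fzd1 and Fzd5 differed by 0.13 and -0.027, less than their standard errors.

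**Figure D2:**
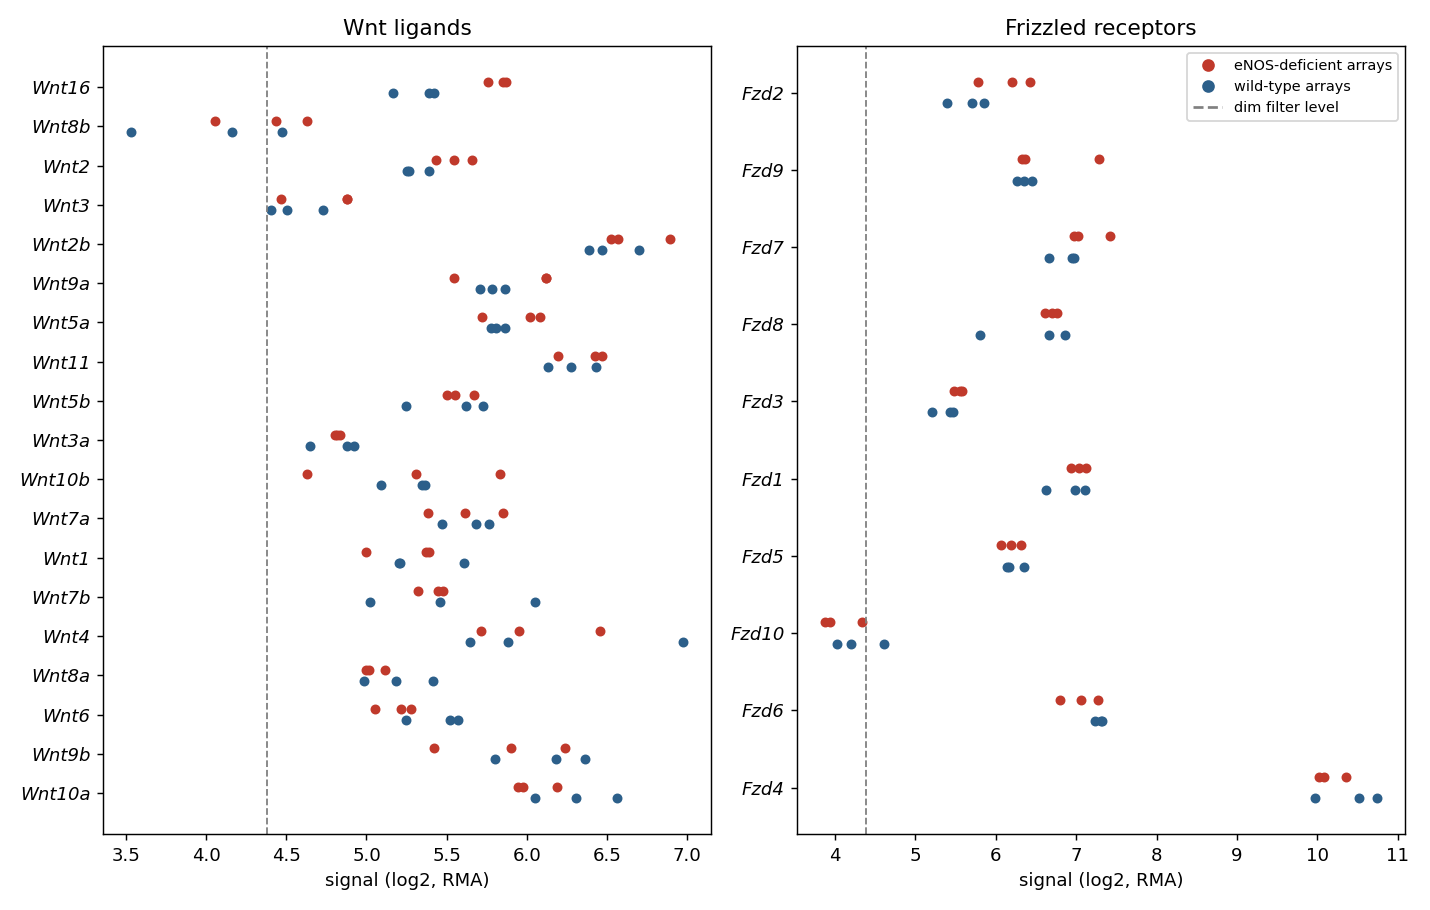
Signal (log2, RMA) on every array for the 19 Wnt ligands (left) and the 10 Frizzled receptors (right), ordered by difference, with eNOS-deficient arrays in red above wild-type arrays in blue. The dashed line is the dim filter level of 4.38, near which Wnt8b and Fzd10 lie, and only Wnt16, Wnt2, Fzd7 and Fzd3 have red points wholly to the right of the blue ones.

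Most Wnt ligands, many of them with dim signals, lay close to no measured difference. Among 18 tested, 9 were positive and 9 negative, and the median was -0.0048 log2. Wnt16, a ligand known for its effect on cortical bone, was the exception at an unadjusted p under 0.05. It read 5.85, 5.87 and 5.76 on eNOS-deficient 11, 15 and 19 and 5.42, 5.39 and 5.17 on wild type 2, 3 and 5, without overlap. The difference was 0.50 log2 (standard error 0.12, interval 0.21 to 0.79, fold 1.42, unadjusted p = 0.00423, adjusted p = 0.263 in limma). Wnt2 had the only other ligand values without overlap, at 5.55, 5.44 and 5.66 against 5.25, 5.39 and 5.27, and differed by 0.24 (standard error 0.12). With the dim filter raised to the 50th percentile, at 5.59 log2, 24 members stayed in the test. Wnt1, Wnt2, Wnt3, Wnt3a, Wnt5b, Wnt6, Wnt7b, Wnt8a, Wnt10b and Wnt16 were among those left out. Whether these dim ligands were detected was not tested, so small differences do not show that they were unchanged.

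Apart from Wnt16, all tested ligands, Wnt2 among them, had differences with intervals that include 0. Wnt5a, the ligand most often tied to the branch without beta-catenin, differed by 0.12 (standard error 0.13), Wnt11 by 0.084 (0.14), Wnt2b by 0.15 (0.15) and Wnt3a by 0.0015 (0.12). Wnt5b stood at 0.042, Wnt7a at -0.022 and Wnt8a at -0.15. The interval for Wnt3a ran from -0.28 to 0.29 log2. Wnt10b, at -0.011, had an interval from -0.68 to 0.66.

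Several ligands are encoded beside each other. By the RefSeq gene order, the members Wnt6 and Wnt10a are adjacent protein-coding genes on chromosome 1, Wnt3a and Wnt9a on chromosome 11, Wnt9b and Wnt3 on chromosome 11, and Wnt10b and Wnt1 on chromosome 15. The pair Wnt6 and Wnt10a had nearly equal differences, -0.26 (standard error 0.14) and -0.27 (0.16). The neighbours Wnt9b and Wnt3 differed in sign, at -0.26 and 0.20. Values of the other pairs were 0.0015 and 0.14, and -0.011 and -0.086, and no gene of any pair passed at an unadjusted p of 0.05.

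Some ligand values stood out on wild type 5. Wnt4, a ligand of epithelial and urogenital development, read 6.98 there, against 5.89 and 5.64 on wild type 2 and 3. On eNOS-deficient 11, 15 and 19 Wnt4 read 6.46, 5.71 and 5.95. Wnt7b, an epithelial ligand, read 6.05 on wild type 5 and 5.02 to 5.48 elsewhere, and Wnt10a read 6.56 there and 5.95 to 6.31 elsewhere. On the same array, 17 squamous epithelium markers averaged 8.51, against 6.19 and 5.50 for wild type 2 and 3. Their eNOS-deficient means lay between 5.23 and 5.33. All 17 had a lower mean in the eNOS-deficient group, among them the keratin Krt4, at 13.33 on wild type 5, 9.64 on wild type 2 and at most 5.16 in eNOS-deficient aorta. The fit was repeated with the mean of the 16 of these markers above the dim filter as a covariate. In that fit Wnt16 differed by 0.38 log2, Fzd2 by 0.30, Sfrp2 by 0.99, Fzd4 by -0.62 and Axin2 by -0.42. The mean over all 17 does not overlap between genotypes, so this covariate and the genotype can be only partly separated. How far the markers account for the values of Wnt4, Wnt7b and Wnt10a was not tested. The widest interval of the ligands was that of Wnt4, -0.97 to 0.72.

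**Figure D3:**
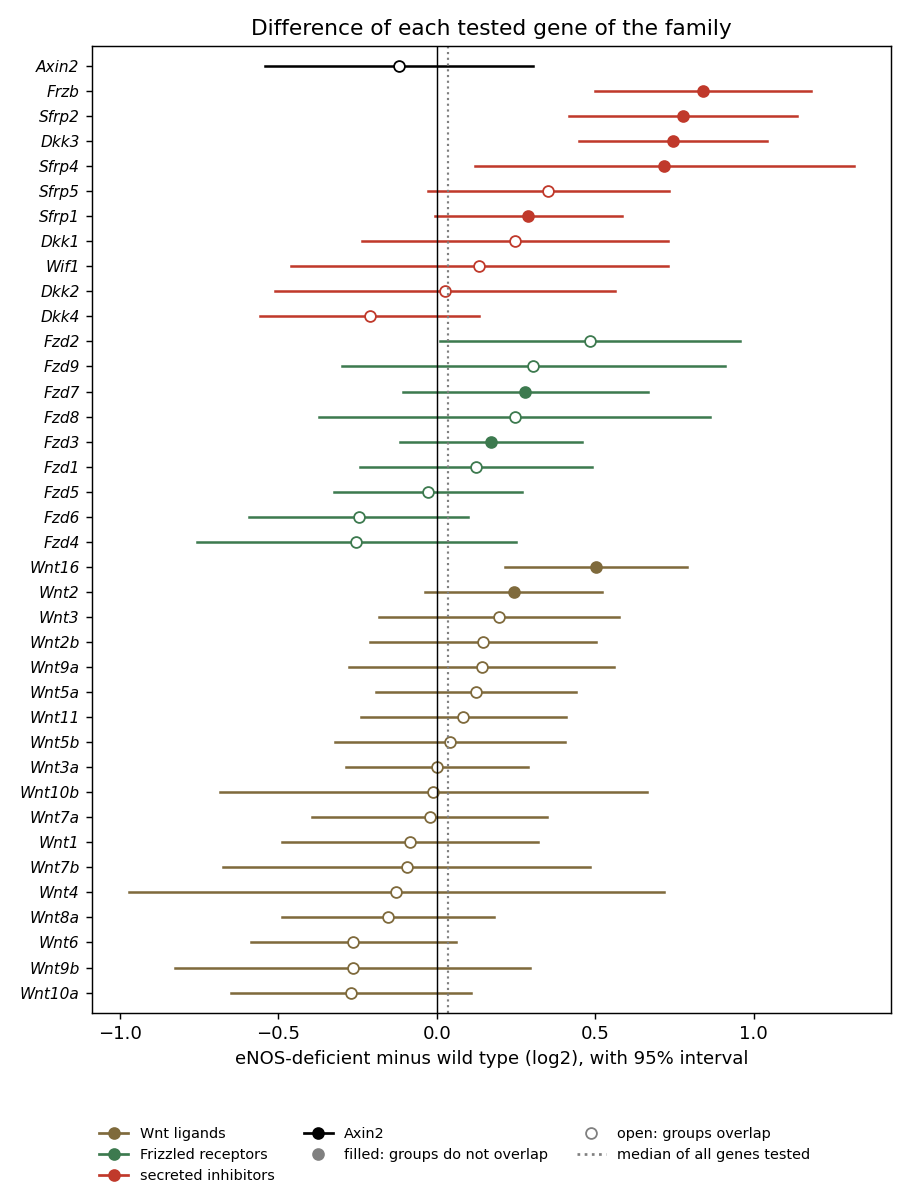
Difference between eNOS-deficient and wild-type aorta (log2) for the 38 tested members, with the 95% interval of the limma fit as a line. Filled points are genes whose groups of arrays did not overlap, and the dotted line is the median of all genes tested, 0.036. The inhibitors Frzb, Sfrp2, Dkk3 and Sfrp4, the ligand Wnt16 and the receptor Fzd2 have intervals above 0, and no member has one below 0.

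The groups of arrays did not overlap for 9 of the 38 tested members, all higher in eNOS-deficient aorta (13.1% of all genes), and for 0 members lower (6.47% of all genes). These 9 were Frzb, Sfrp2, Dkk3, Sfrp4, Sfrp1, Wnt16, Wnt2, Fzd7 and Fzd3. The median over the 38 members was 0.12 log2. It was 0.033 without eNOS-deficient 11, where the median of all genes was 0.041. Frzb, Sfrp4, Sfrp2, Fzd7, Fzd9 and Wnt10b were among the members that read highest on that array. Over the 38, 24 differences were positive, beside 56.6% of all genes.

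Axin2, the feedback target of beta-catenin, read 6.43, 6.38 and 6.34 on eNOS-deficient 11, 15 and 19 and 6.72, 6.68 and 6.11 on wild type 2, 3 and 5. Wild type 5 was again lowest, and the eNOS-deficient values lay between it and the other wild-type arrays. The difference was -0.12 (standard error 0.18, interval -0.54 to 0.30, adjusted p = 0.845 in limma). Without wild type 5 the difference was -0.32 (unadjusted p = 0.0248, adjusted p = 0.267). The second probe set of Axin2 differed by 0.039 (standard error 0.20), with a different order of arrays.

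Adventitial fibroblast markers were set beside the inhibitors, since fibroblasts are known producers of several of them. All 13 measured markers had a positive difference, and their mean was 9.30, 9.17 and 9.09 on eNOS-deficient 11, 15 and 19, against 8.44, 8.55 and 8.83 on wild type 2, 3 and 5. The list mean differed by 0.58 log2, beside 0.72 to 0.84 for the 4 leading inhibitors. Of the 13, 8 were higher at an unadjusted p under 0.05 (7.86% of all genes were). In bulk tissue, fewer or more cells of a type and less or more RNA per cell cannot be told apart. With the fibroblast mean as a covariate, an alternative added after seeing the data, Dkk3 differed by 1.01 (unadjusted p = 0.0109) and Wnt16 by 0.76 (0.0327), Frzb by 0.71 (0.0898), Sfrp2 by 0.37 (0.316) and Sfrp4 by -0.38 (0.423) in limma. In that fit Fzd8 differed by 1.57 (unadjusted p = 0.00344), Fzd1 by 0.81 (0.0171) and Sfrp5 by 0.90 (0.0326) in limma. Wnt4 differed by -1.93 (0.007) and Wnt7b by -1.29 (0.0104), and no member passed the adjusted test. The fibroblast mean does not overlap between genotypes, so the covariate and the genotype can be only partly separated.

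Other cell markers were read in the same way. Macrophage markers averaged 8.11 to 8.47 on the eNOS-deficient and 7.34 to 7.71 on the wild-type arrays, with all 12 positive. Smooth muscle markers, which define the medial layer, averaged 9.25 to 9.54 and 9.01 to 9.24. Skeletal muscle markers averaged 11.72 on eNOS-deficient 11, the array on which Frzb, Sfrp4, Fzd7 and Fzd9 were highest, against 10.35 on both other eNOS-deficient arrays. They averaged 11.25 on wild type 5 and 10.23 and 9.46 on wild type 2 and 3. Wnt4 read highest on wild type 5 (6.98) and eNOS-deficient 11 (6.46), the arrays with the highest skeletal muscle means. Of the wild-type arrays, wild type 5 read highest for Sfrp4 (7.36) and Sfrp2 (6.76) and lowest for Frzb (5.55) and Fzd7 (6.66), and Fzd9 (6.35) lay between the other two. Adipocyte markers averaged 10.92 to 11.35 over all arrays and Schwann cell markers 6.15 to 6.59, with overlap. Lymphocyte markers averaged 6.13 on eNOS-deficient 11 and 7.79 to 8.66 on the others, and airway epithelium markers 4.77 to 5.89. The mean of the 3 Y-linked genes measured ranged from 3.47 to 3.63 in wild type, and eNOS-deficient 11, 15 and 19 exceeded the wild-type mean by 4.22, 1.16 and 4.46 log2. The labels give no sex, and sex and genotype cannot be told apart in any difference given here. The part of these markers in the Wnt gene values was not tested.

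**Figure D4:**
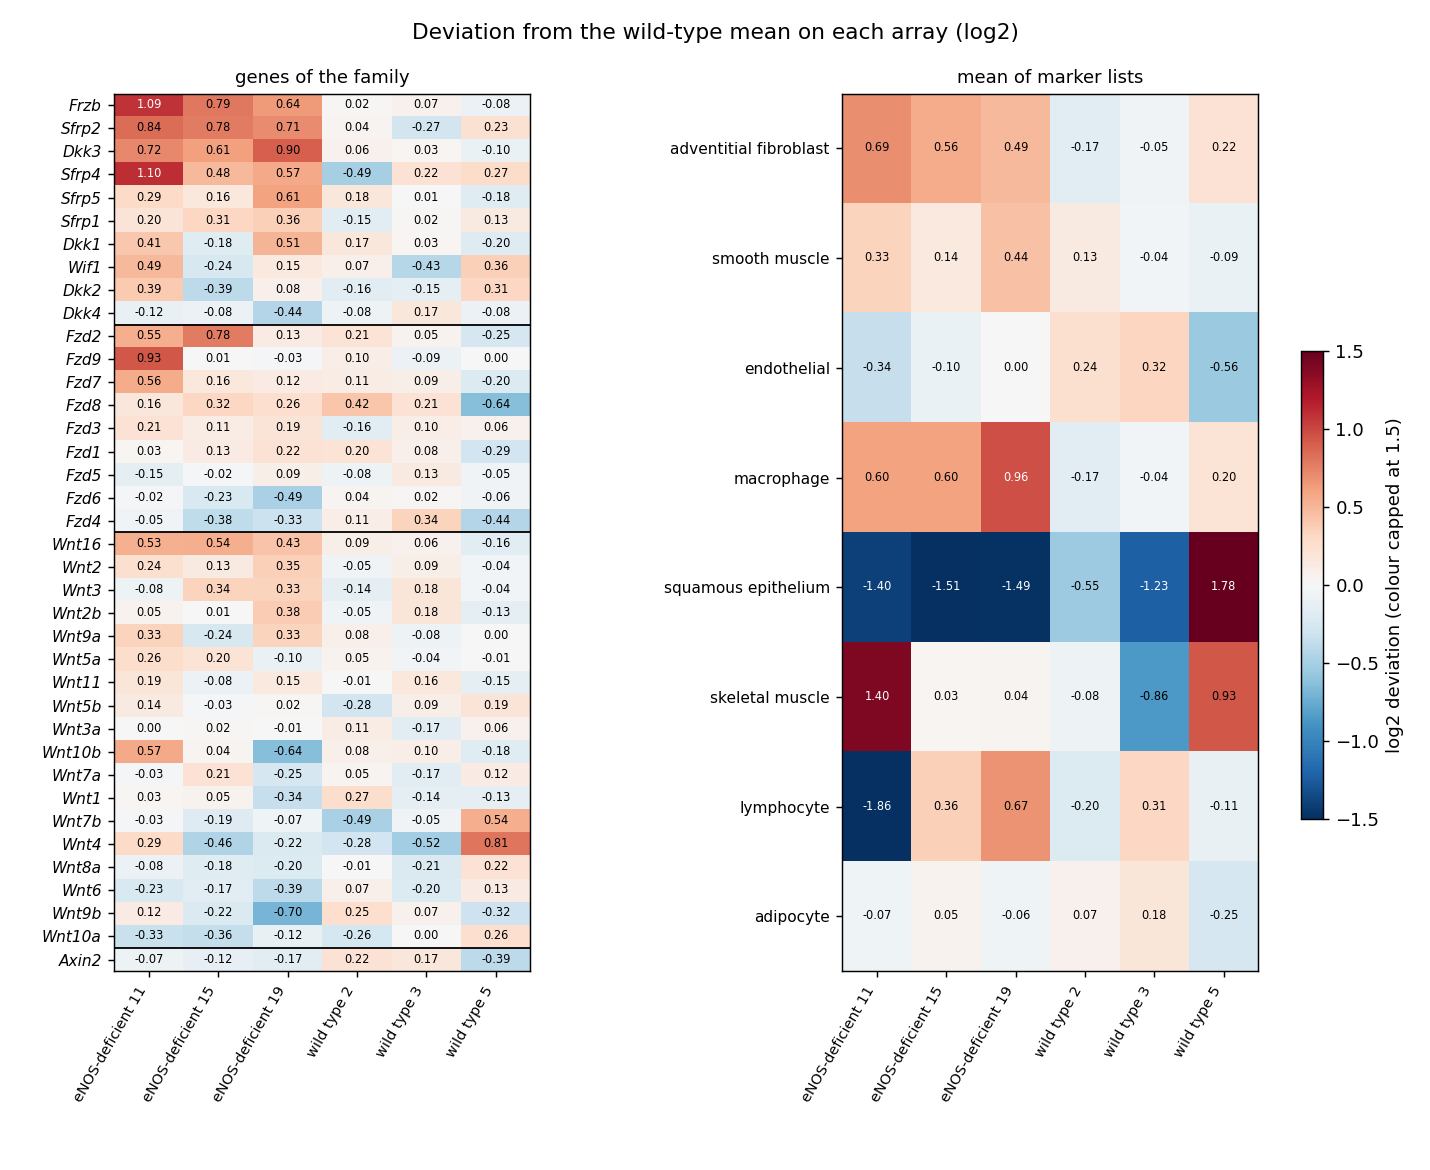
Deviation of each array from the wild-type mean (log2) for the 38 tested members (left, ordered by role and difference) and for the means of 8 lists of cell markers (right). Red is higher and blue lower, with the colour capped at 1.5 and the value printed in each cell. Frzb, Sfrp2, Dkk3 and Sfrp4 are positive on all 3 eNOS-deficient arrays, as are the fibroblast, macrophage, smooth muscle and skeletal muscle lists. Wild type 5 stands apart for squamous epithelium (1.78), Wnt4 (0.81) and Fzd8 (-0.64).

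The rest of the pathway was read from 6 lists holding 101 symbols, of which 95 were measured and 94 tested. None passed the adjusted test in limma. At an unadjusted p under 0.05, 4 were higher and 2 were lower, and 9 were higher and 2 lower without overlap. The median over the 94 genes was 0.060 log2. The 6 calls held in part of the repeats under other settings and with arrays left out: Kremen2 in 9 of 14, Lgr5 in 9 of 13, Wls, Igfbp4 and Dvl3 in 8 of 14 each, and Nkd2 in 6 of 14. As shares, the counts of calls and of groups without overlap lie below those over all genes given above. Of the 94 differences, 69 were positive, beside 56.6% of all genes.

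In the list of ligand processing and secretion, Wls, which carries Wnt proteins to the cell surface, read 9.06, 9.02 and 9.05 on eNOS-deficient 11, 15 and 19 and 8.68, 8.79 and 8.74 on wild type 2, 3 and 5. Both groups were tight and apart, and the difference was 0.31 (standard error 0.11, unadjusted p = 0.0229, adjusted p = 0.369 in limma). Porcn, which adds the lipid to Wnt proteins, differed by -0.26 (0.14), and the extracellular Wnt-inactivating enzymes Notum and Trabd2b by 0.11 (0.16) and 0.39 (0.26). Of the 8 co-receptors and receptor kinases, 0 were under an unadjusted p of 0.05 (7.86% of all genes were higher and 3.72% lower). Lrp5 and Lrp4 differed by 0.10 and 0.13, Ror1, a receptor for Wnt5a, by 0.23 (0.15) and Ptk7 by -0.078.

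Among 23 other secreted or surface modulators, 3 had an unadjusted p under 0.05, of which 2 were lower. Over all genes 7.86% were higher and 3.72% lower. Lgr5, a receptor of R-spondins that is itself a target of the pathway, read 4.92, 4.97 and 4.69 against 5.12, 5.29 and 5.41. Its difference was -0.41 (standard error 0.14, adjusted p = 0.353 in limma). With the probe sets of Lgr5 averaged it was -0.26 (standard error 0.14, unadjusted p = 0.0954 in limma). Kremen2, a partner of Dkk proteins, differed by -0.31 (0.11) and Igfbp4, a secreted binding protein that also inhibits Wnt signalling, by 0.40 (0.15), both without overlap. Gpc3, a glypican, differed by 0.41 (0.22). Of 24 cytoplasmic and nuclear genes, 20 were positive (56.6% of all genes were) with a median of 0.13. Under the unadjusted threshold was 1 gene, which was higher (7.86% of all genes were). This was Dvl3, which relays the signal from Frizzled, at 0.40 (0.16). Bcl9, Tle1 and Pygo1, which act with beta-catenin or TCF factors, stood at 0.35, 0.30 and 0.31. With its probe sets averaged, Tle1 differed by 0.088 (standard error 0.14).

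Of 18 tested target genes, Nkd2, a feedback inhibitor, was higher by 0.29 (standard error 0.12, unadjusted p = 0.0479 in limma) and Lgr5 was lower, as given. Ccn5 differed by 0.39 (0.21) and Znrf3, which removes Frizzled from the surface, by 0.17 (0.11). The target list had 11 positive and 7 negative differences and a median of 0.048, near the median of all genes. The 23 genes of the planar cell polarity and calcium branch had 0 members under the unadjusted threshold (7.86% of all genes were higher and 3.72% lower) and a median of 0.032. Its smallest p-values belonged to Celsr2 (-0.33), Rhoa (0.25), Rac1 (0.18) and Camk2a (0.59, standard error 0.41).

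**Figure D5:**
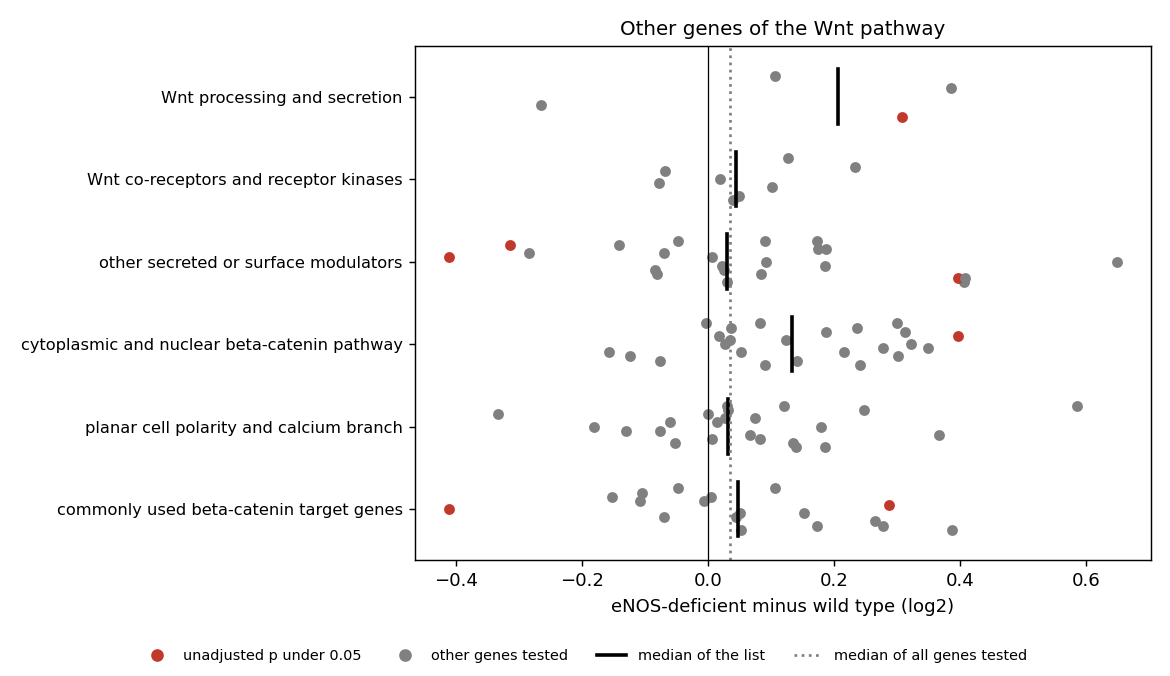
Difference between eNOS-deficient and wild-type aorta (log2) for the tested genes of 6 pathway lists, 1 point per gene, with Lgr5, Znrf3 and other shared genes drawn in each list that holds them. Red points have an unadjusted p under 0.05, black bars are list medians and the dotted line is the median of all genes tested, 0.036. The red points are Wls, Igfbp4, Dvl3 and Nkd2 to the right and Lgr5 and Kremen2 to the left.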

How the data were processed

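The authors deposited log2 expression values. Their processing notes name RMA and Affymetrix Expression Console 1.3.1, and the labels' protocols give 300 ng of RNA as input. Symbols came from the platform's annotation: 23525 of 41345 listed 1 symbol, 1810 several and 16010 none. The gene's probe set of highest mean was kept, and genes under the 25th percentile of probe sets were left out. The fit was limma 3.58.1 in R 4.3.3 (lmFit, eBayes without trend, two-sided, no covariate), adjusted by Benjamini-Hochberg over 18008 genes, and was tested on simulated data. Plots used matplotlib 3.10.9 in Python 3.11.15. Each gene has 3 values per group, which limits the precision.

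The members, lists and naming rule were chosen with earlier results of these data known. Given array by array were members with an unadjusted p under 0.05, or without overlap at a fold of at least 1.5, the 5 of highest signal, Axin2, and those with 2 probe sets. Of other pathway genes up to 4 per list with the smallest p were named. Sfrp1, Sfrp5, Wnt2, Wnt4, Wnt7b, Wnt10a, Fzd3, Fzd8, Fzd9 and other members were described after their values were seen. RefSeq (GRCm38.p6) gave names, gene order and windows, and the build of the array files is not given in the sources used here. Of 218 list symbols 204 were measured. Repeats of the fit under other settings are given at the end.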

Additional observations from a re-analysis of the deposited data

How the results depend on the processing

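The fit was repeated with the dim filter dropped or raised to the 50th percentile, with a robust intensity trend, with averaged probe sets, after centring on array medians or a second quantile step, with array weights, with squamous epithelium markers as a covariate, and without each array. The fibroblast covariate was chosen after seeing the data and is not in the counts of repeats. The epithelium covariate is in the counts, although the mean of its marker list does not overlap between genotypes either. Dkk3, Frzb and Sfrp2 were higher at an unadjusted p under 0.05 in all 14 repeats. Wnt16 was in the 13 that could test it, Sfrp4 in 12 and Fzd2 in 9. The 50th percentile filter left Wnt16 untested. Array weights gave 2 members past an adjusted p under 0.05, Frzb (0.78 log2, adjusted p = 0.0477, range over the repeats 0.0477 to 0.51) and Sfrp2 (0.85, 0.0474, range 0.0474 to 0.545), 1 member lower at an unadjusted p (Fzd4) and a median of 0.045. Each other repeat gave 0 past the adjusted threshold, and the unaltered fit gave 0 at 0.1 too. The share of 0.0278% of all genes belongs to the unaltered fit, and the share with array weights is not given here. With array weights Dkk3 and Wnt16 also had lower adjusted p-values in limma, 0.0539 and 0.0689, against 0.198 and 0.263 in the unaltered fit. Members higher at an unadjusted p ran from 4 to 7 with 1 array left out, and lower from 0 to 2. The 2 without wild type 5 were Axin2 and Fzd4, as with the epithelium covariate (2 lower). The fibroblast covariate gave 5 higher (Dkk3, Fzd1, Fzd8, Sfrp5 and Wnt16) and 2 lower, Wnt4 and Wnt7b. The median over secreted inhibitors ran from 0.24 to 0.72 over the repeats and was 0.23 with the fibroblast covariate. The median over members ran from 0.033 to 0.15 with 1 array left out and was 0.19 after median centring, which put the median of all genes at 0.10. Signs turned, with an unadjusted p above 0.05 each time, for Ptk7 (0.0099 with the second quantile step, 0.017 with array weights, 0.057 with the epithelium covariate, 0.018 without wild type 5), Lrp5 (-0.069 with the epithelium covariate, -0.019 without wild type 5), Trabd2b (-0.10 with the epithelium covariate), Lrp4 (-0.10 without eNOS-deficient 11, -0.053 without wild type 3) and Notum (-0.043 without eNOS-deficient 11). With the fibroblast covariate they turned for Sfrp4 (-0.38), Fzd4 (0.32), Axin2 (0.58), Lrp4 (-1.18, unadjusted p = 0.0357 in limma), Notum (-0.28), Gpc3 (-0.40), Camk2a (-1.39) and Nos3 (0.39). The cause of these changes was not tested. With 1 array left out, the differences ran from -0.019 to 0.21 for Lrp5, -0.16 to 0.018 for Ptk7, -0.10 to 0.38 for Lrp4 and -0.043 to 0.24 for Notum. No paired analysis was possible because the groups share no replicate numbers. Signals of about 4.4 log2 and below, as for Wnt8b and Fzd10, lie near or under the dim filter level. Whether these genes were detected was not tested, which limits any fold.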
